A study of Mus musculus with 12 samples.

Results

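The circadian clock of mammals is a loop of transcription factors, and 10 of its genes were followed here in mouse astrocytes of the established line C8-D1A under acidifying culture conditions. The genes were the activators Arntl (also called Bmal1) and Clock, the repressors Per1, Per2, Per3, Cry1 and Cry2, the nuclear receptors Nr1d1 and Nr1d2, and the output factor Dbp. They were chosen by name and are 10 of the 21959 genes in the expression table. All 10 had at least 1 TPM (transcripts in each 1000000, a length-corrected share of a library) in at least 3 of the 12 libraries and entered the tests, in which 12326 genes were fitted.

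Each of 4 groups held 3 libraries, and RNA was taken 24 h after the conditions were set. Control cells were kept at 37 °C under 5% CO2. The first treated group was kept under 15% CO2, the second received 20 mM lactic acid in the medium, and the third was grown in medium whose NaHCO3 had been lowered to 0.2 g/L. The CO2 level of the lactic acid and low-NaHCO3 groups, the pH reached in any group, the hour of collection and any synchronization of the cultures are not stated in the sources used here. Whether the treatments are matched by pH is therefore unknown. With 1 time point, a change in the mean level of a rhythmic transcript, in its amplitude and in its phase cannot be told apart. No label says that the 3 libraries of a group are separate cultures, so p-values measure only the spread between these libraries.

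ARNTL and CLOCK form a dimer that binds E-box sequences and activates the Per, Cry, Nr1d and Dbp genes. PER and CRY proteins return to the nucleus and inhibit that dimer. The proteins of Nr1d1 and Nr1d2 (REV-ERB alpha and REV-ERB beta) repress Arntl, and DBP activates genes through D-box sequences. Astrocytes of the suprachiasmatic nucleus, the central pacemaker of the brain, carry such a clock, and acidity is known to dampen clocks in cultured cells, which is the question these genes address. Per1 and Per2 also respond within hours to signals that reach CREB, serum response factor or the glucocorticoid receptor, apart from the loop itself.

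Control replicate 1 stood apart from the other 11 libraries. Its rank correlation with them over genes was 0.859 to 0.884, against 0.958 to 0.980 among the other 11. It was the highest library for 5 of 5 neuron markers (summed TPM 1791 against 86.0 to 136), 4 of 4 oligodendrocyte markers (492 against 1.22 to 3.09), 5 of 5 microglia markers (74.9 against 3.86 to 11), 4 of 5 endothelial and mural markers (118 against 25.9 to 44.9) and 4 of 4 red blood cell markers (350 against 0.594 to 4.01). The highest marker of each list in that library was Snap25 at 603 TPM (at most 0.0363 elsewhere), Mbp at 261 (at most 1.62), P2ry12 at 22.0 (0 elsewhere), Rgs5 at 45.6 (at most 0.706) and Hbb-bs at 249 (at most 0.326). In the other 11 libraries Tubb3 (85.9 to 136 TPM) made up most of the neuron sum. Of the 9 astrocyte markers, whose summed TPM was 2023 in control 1 and 1411 to 2748 in the others, Vim, Sox9 and S100b were the ones well expressed in the other 11 libraries. Vim alone gave 1000 TPM of that sum in control 1 and 1327 to 2678 in the others. In those 11 libraries Gfap reached at most 1.19 TPM, Slc1a3 0.0210, Slc1a2 0.416, Aqp4 0.356, Aldh1l1 0.641 and Aldoc 0.982, against 64.3, 145, 316, 45.3, 14.3 and 286 in control 1. The defining astrocyte markers were thus at or near 0 in the libraries other than control 1.

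Among the clock genes, control 1 was above both other controls for 9 of 10. The share of all genes for which this holds was not computed, so the count cannot be called particular to the clock genes. It had 3.92 times the mean of controls 2 and 3 for Per1, 3.22 times for Cry2, 2.85 times for Per2 and 2.62 times for Per3. The ratio was 1.54 for Nr1d1, 1.31 for Dbp, 1.25 for Arntl, 1.17 for Clock, 1.07 for Nr1d2 and 0.973 for Cry1. Counts of genes past the threshold are therefore given with all 12 libraries and without control 1, when 2 controls remain and 12226 genes were tested. The part of the brain markers in the clock gene values of control 1 was not tested.

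Upstream sequence was available for 9 of the 10 genes, as 13 windows of 300 bases (250 before and 50 after an annotated start) from RefSeq on build GRCm38.p6. Per2 had no window. The authors aligned to GRCm39, so these positions are not those of the files. Both strands were searched for the E-box CACGTG, its variant CACGTT, the D-boxes TTATGTAA and TTACGTAA, the core AGGTCA of ROR and REV-ERB elements, and the cAMP response element TGACGTCA. Of all 32851 windows in the table, 7.15% held CACGTG, 4.68% CACGTT, 0.938% TTATGTAA, 0.119% TTACGTAA, 16.3% AGGTCA and 1.79% TGACGTCA. Printed here are the 250 bases before the start of the 2 genes with the largest changes, Per1 and Nr1d1, of Cry1, whose window holds both E-box forms, and of Per3, the gene with 2 D-boxes. Capitals mark the matches, and a match on the opposite strand reads as its reverse complement.
Per1, chr11:69098699-69098948, plus strand: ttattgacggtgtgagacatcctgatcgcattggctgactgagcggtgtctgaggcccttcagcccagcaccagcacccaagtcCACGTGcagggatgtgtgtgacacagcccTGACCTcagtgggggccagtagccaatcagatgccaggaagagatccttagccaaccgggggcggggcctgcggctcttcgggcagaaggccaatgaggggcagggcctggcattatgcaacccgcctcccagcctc
Nr1d1, chr11:98775378-98775627, minus strand: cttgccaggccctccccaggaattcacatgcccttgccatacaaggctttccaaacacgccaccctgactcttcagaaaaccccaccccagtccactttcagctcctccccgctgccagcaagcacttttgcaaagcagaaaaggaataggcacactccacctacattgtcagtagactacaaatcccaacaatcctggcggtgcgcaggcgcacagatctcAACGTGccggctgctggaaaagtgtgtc
Cry1, chr10:85185055-85185304, minus strand: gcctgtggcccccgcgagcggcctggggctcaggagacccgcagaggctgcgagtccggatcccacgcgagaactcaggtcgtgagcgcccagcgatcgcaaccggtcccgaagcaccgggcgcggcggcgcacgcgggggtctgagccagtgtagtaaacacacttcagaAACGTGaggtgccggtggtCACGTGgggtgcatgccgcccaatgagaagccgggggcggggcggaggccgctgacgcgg
Per3, chr4:151044666-151044915, minus strand: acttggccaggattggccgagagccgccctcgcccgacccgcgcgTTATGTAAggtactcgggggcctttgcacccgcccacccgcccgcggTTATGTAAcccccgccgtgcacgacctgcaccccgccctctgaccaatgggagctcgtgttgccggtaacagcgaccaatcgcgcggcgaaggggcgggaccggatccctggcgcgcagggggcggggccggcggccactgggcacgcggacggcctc
In the Per1 sequence CACGTG begins at base 85 and AGGTCA, on the opposite strand, at base 114. The Nr1d1 sequence holds CACGTT on the opposite strand from base 223. In Cry1 the E-box begins at base 191 and CACGTT, on the opposite strand, at base 172. Per3 has TTATGTAA from bases 46 and 93. Among the windows not printed, Cry2 held CACGTT at base 85, and Arntl, Clock and Nr1d2 each held AGGTCA in 1 window. The Dbp window and a second window of Per1 held none of the 6 motifs, and no window of the 10 genes held TTACGTAA or TGACGTCA.

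Of the 3 treatments, low-NaHCO3 medium had the most clock genes past the threshold against control, and the most of all genes. With all 12 libraries 4 of the 10 rose (Per1, Nr1d1, Nr1d2 and Dbp) and 2 fell (Cry1 and Clock), by limma's moderated test on log2(TPM + 1) with Benjamini-Hochberg adjustment over all genes at 0.05. The background was wide in this comparison: 19.8% of all tested genes rose and 35% fell, 54.8% in either direction, so that 6 in 10 is near the background. Without control 1, 7 rose, with Per2, Per3 and Cry2 added, and the same 2 fell, where 22.7% of all genes rose and 40.9% fell (63.7% in either direction). The median log2 change of the 10 genes was 0.54 (0.70 without control 1), against -0.20 (-0.17) over all genes tested. Relative to that shift of all genes, the log2 changes of Cry1 (-0.35) and Clock (-0.28) were small. Under median-of-ratios scaling, which brings the median of all genes to -0.01, the split over all genes changed from 2442 higher and 4316 lower to 3572 higher and 3261 lower. The clock genes past the threshold were then 5 higher and 0 lower.

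15% CO2 and lactic acid changed fewer clock genes, and the number depended on control 1. Under 15% CO2 none of the 10 passed with all 12 libraries (1 at an unadjusted p under 0.05), where 1.28% of all genes rose and 0.0649% fell. Without control 1, Per3 and Dbp rose and none fell, against 5.82% and 1.56% of all genes. With lactic acid Dbp alone rose in the fit of all 12 libraries, against 2.47% of genes higher and 1.52% lower. Without control 1, Per1, Per3, Cry2, Nr1d1 and Dbp rose and none fell, against 9.05% and 7.08%. The median log2 change of the 10 genes was -0.03 under 15% CO2 and 0.06 with lactic acid, and 0.27 and 0.28 without control 1. The medians over all genes in the fit without control 1 were 0.03 and -1.06e-07. The 3 comparisons share the control libraries.

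Across all 4 groups, limma's moderated F test called 6 of the 10 genes (Per1, Cry2, Clock, Nr1d1, Nr1d2 and Dbp), against 53.5% of all genes tested. Without control 1 it called 8, with Per2 and Per3 added, against 74.4%. Cry1 and Arntl passed in neither fit, with adjusted p-values of 0.115 and 0.318 in the fit of all 12 libraries. A share of 6 in 10 is near the background of that fit.

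**Figure D1:**
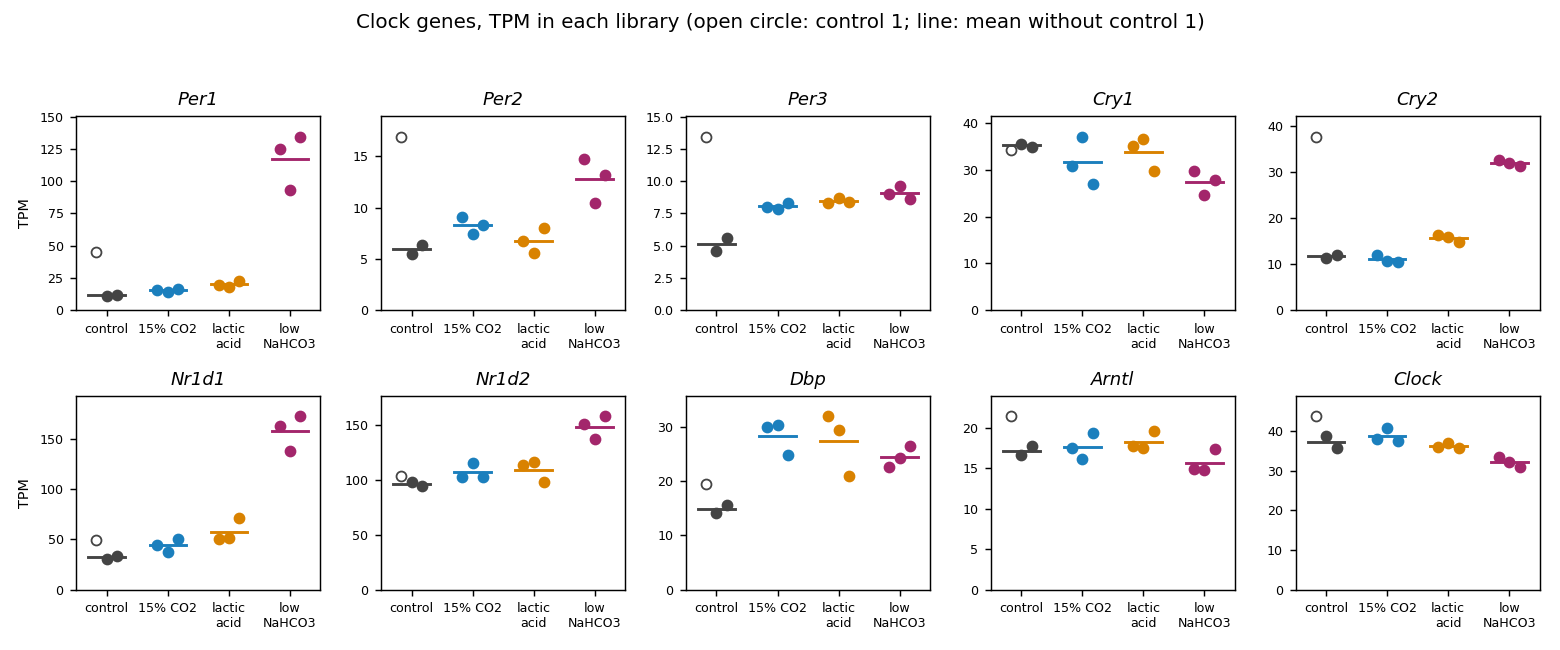
TPM of the 10 clock genes (vertical axis, from 0, scaled for each gene) in each library of the 4 groups; the open circle is control 1 and each line is the group mean without it. Per1, Cry2 and Nr1d1 stand highest in the 3 low-NaHCO3 libraries among the 11 libraries without control 1, Per2, Per3 and Cry2 of control 1 lie above every other library, and Arntl overlaps between control and each treatment.

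Per1, a Per gene that responds quickly to outside signals, stood highest in low-NaHCO3 medium. Its TPM was 45.2, 11.1 and 12 in controls 1 to 3, 15.8, 14.3 and 16.3 under 15% CO2, 20.0, 18.2 and 22.8 with lactic acid and 125, 92.9 and 134 in low-NaHCO3 medium. Every low-NaHCO3 library was above every other library, control 1 included, while control 1 was above all 15% CO2 and lactic acid libraries and controls 2 and 3 were below them. In low-NaHCO3 medium the mean was 117 ± 21.8 TPM (SD, n = 3), 5.16 times the control mean, with a log2 change of 2.59 ± 0.40 (SE) and an adjusted p of 3.11e-04 by limma. Without control 1 the ratio was 10.2 and the log2 change 3.22 ± 0.14. With lactic acid the log2 change was 0.13 ± 0.40 with all controls and 0.76 ± 0.14 without control 1, and the second passed (adjusted p = 0.00748). Under 15% CO2 it was -0.24 ± 0.40 and, without control 1, 0.39 ± 0.14. Neither 15% CO2 value passed, and the sign turned with control 1. In bulk RNA, more transcript per cell and more cells that carry it cannot be told apart.

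Per2, a repressor that works in a complex with CRY proteins, was measured at 16.9, 5.49 and 6.36 TPM in the controls, 9.10, 7.40 and 8.32 under 15% CO2, 6.70, 5.59 and 8.05 with lactic acid and 14.7, 10.5 and 13.2 in low-NaHCO3 medium. Control 1 was the highest of the 12 libraries, and the low-NaHCO3 libraries were above the other 8. Against all 3 controls no treatment passed, and the log2 change in low-NaHCO3 medium was 0.53 ± 0.32 (adjusted p = 0.176, limma). Without control 1, Per2 rose by 0.98 ± 0.16 in low-NaHCO3 medium (adjusted p = 2.86e-04), 2.16 times the mean of controls 2 and 3. The values for 15% CO2 (0.42 ± 0.16) and lactic acid (0.16 ± 0.16) did not pass there.

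Per3, the Per gene least needed for rhythms in the mouse, was the one with the most even response. It stood at 13.4, 4.62 and 5.62 TPM in the controls, 8.0, 7.86 and 8.28 under 15% CO2, 8.29, 8.69 and 8.40 with lactic acid and 8.99, 9.66 and 8.58 in low-NaHCO3 medium. The 9 treated libraries ranged from 7.86 to 9.66 TPM, above controls 2 and 3 and below control 1. Without control 1, Per3 rose in all 3 treatments, by 0.57 ± 0.10 under 15% CO2, by 0.63 ± 0.10 with lactic acid and by 0.72 ± 0.10 in low-NaHCO3 medium (adjusted p = 0.00789, 0.00288 and 6.71e-05, limma). With control 1 the 3 log2 changes were 0.16 ± 0.27, 0.22 ± 0.27 and 0.31 ± 0.27, and none passed. The call thus rests on leaving out 1 library.

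Cry2, a repressor of the ARNTL and CLOCK dimer, differed between the treatments. Its TPM was 37.6, 11.4 and 12 in the controls, 11.9, 10.6 and 10.6 under 15% CO2, 16.3, 15.9 and 14.9 with lactic acid and 32.7, 31.9 and 31.3 in low-NaHCO3 medium. The low-NaHCO3 libraries were above all others but control 1, the lactic acid libraries lay above controls 2 and 3, and the 15% CO2 libraries overlapped with controls 2 and 3. In low-NaHCO3 medium the log2 change was 0.84 ± 0.33 with all controls (adjusted p = 0.0518, limma) and 1.38 ± 0.08 without control 1 (adjusted p = 2.01e-07). With lactic acid it was -0.14 ± 0.33 with all controls, not past the threshold, and 0.40 ± 0.08 without control 1 (adjusted p = 0.0101). Under 15% CO2 it was -0.61 ± 0.33 and -0.08 ± 0.08, and neither passed.

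Cry1, the stronger repressor of the pair, went the other way from Cry2 in low-NaHCO3 medium. It stood at 34.3, 35.6 and 34.9 TPM in the controls, 30.7, 37.0 and 27.0 under 15% CO2, 35.0, 36.5 and 29.7 with lactic acid and 29.7, 24.6 and 27.9 in low-NaHCO3 medium. The 3 controls were close together and above the 3 low-NaHCO3 libraries, while the 15% CO2 and lactic acid libraries spread across the range of the controls. Cry1 fell in low-NaHCO3 medium, with a log2 change of -0.35 ± 0.12 (adjusted p = 0.0340, limma) and -0.36 ± 0.13 without control 1 (adjusted p = 0.0330). With median-of-ratios scaling the change was -0.15 and with quantile normalization -0.17, and neither passed. Leaving out control 2, control 3, low-NaHCO3 replicate 2 or low-NaHCO3 replicate 3 also ended the call, at log2 changes of -0.33, -0.35, -0.27 and -0.36.

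Nr1d1 encodes REV-ERB alpha, the heme-binding repressor of Arntl, and was the second gene with a large change. Its TPM was 49.6, 30.9 and 33.6 in the controls, 44.8, 37.3 and 50.8 under 15% CO2, 49.9, 51.1 and 71.1 with lactic acid and 162, 138 and 172 in low-NaHCO3 medium. All 3 low-NaHCO3 libraries were far above the other 9. The lactic acid libraries lay above all 3 controls, and the 15% CO2 libraries overlapped with them through control 1. In low-NaHCO3 medium the mean was 157 ± 17.5 TPM (SD, n = 3), 4.14 times the control mean, with a log2 change of 2.04 ± 0.19 (adjusted p = 1.11e-05, limma) and of 2.25 ± 0.16 without control 1. With lactic acid the log2 change was 0.59 ± 0.19 (adjusted p = 0.106), and without control 1 it was 0.79 ± 0.16 and passed (adjusted p = 0.0106). Under 15% CO2 the values of 0.23 ± 0.19 and 0.44 ± 0.16 did not pass.

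Nr1d2 encodes REV-ERB beta and was the most abundant of the 10 in every group but low-NaHCO3 medium. It was measured at 103, 98.3 and 94.7 TPM in the controls, 103, 115 and 102 under 15% CO2, 113, 116 and 98.2 with lactic acid and 151, 137 and 158 in low-NaHCO3 medium. The low-NaHCO3 libraries were above the other 9 libraries, and the ranges of the other 3 groups overlapped. Nr1d2 rose by 0.58 ± 0.09 in low-NaHCO3 medium (adjusted p = 3.44e-04, limma) and by 0.61 ± 0.09 without control 1, so control 1 mattered little for this gene. Under 15% CO2 and lactic acid the log2 changes were 0.11 ± 0.09 and 0.14 ± 0.09, and neither passed in either fit.

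Dbp is the direct E-box target often used as a readout of the ARNTL and CLOCK dimer, and it was higher than in control in all 3 treatments. Its TPM was 19.5, 14.1 and 15.6 in the controls, 29.9, 30.3 and 24.7 under 15% CO2, 31.9, 29.5 and 21.0 with lactic acid and 22.6, 24.3 and 26.4 in low-NaHCO3 medium. All 9 treated libraries were above all 3 controls, control 1 included. The nearest values were lactic acid replicate 3 and control 1. With all controls Dbp rose by 0.70 ± 0.16 with lactic acid and by 0.56 ± 0.16 in low-NaHCO3 medium (adjusted p = 0.0409 and 0.0142, limma), and its log2 change of 0.76 ± 0.16 under 15% CO2 was just outside the threshold (adjusted p = 0.0528). Without control 1 all 3 passed, at 0.88 ± 0.16 (15% CO2), 0.82 ± 0.16 (lactic acid) and 0.68 ± 0.16 (low-NaHCO3 medium; adjusted p = 0.00935, 0.00753 and 0.00284). The lactic acid call of the fit with 12 libraries was kept in 2 of the 12 fits that left out 1 library, with log2 changes of 0.58 to 0.87. The low-NaHCO3 call was kept in 11 of 12.

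The activators varied least. Arntl, the partner without which the mouse clock stops, stood at 21.4, 16.6 and 17.8 TPM in the controls, 17.5, 16.2 and 19.4 under 15% CO2, 17.8, 17.5 and 19.6 with lactic acid and 15.0, 14.8 and 17.5 in low-NaHCO3 medium. Each treated group overlapped with the controls, and no treatment passed in either fit. The log2 changes of Arntl were -0.06 ± 0.12, -0.02 ± 0.12 and -0.23 ± 0.12 with all controls, and 0.04 ± 0.10, 0.08 ± 0.10 and -0.13 ± 0.10 without control 1, in the order 15% CO2, lactic acid and low-NaHCO3 medium. A p past the threshold was not reached, which does not show that Arntl was the same in all groups.

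Clock, whose protein pairs with ARNTL, was measured at 43.7, 38.7 and 35.9 TPM in the controls, 38.0, 40.7 and 37.6 under 15% CO2, 35.9, 37.0 and 35.8 with lactic acid and 33.4, 32.3 and 30.9 in low-NaHCO3 medium. The 3 low-NaHCO3 libraries were the lowest of the 12, by a small margin. Clock fell in low-NaHCO3 medium, with a log2 change of -0.28 ± 0.08 (adjusted p = 0.0165, limma) and -0.20 ± 0.07 without control 1 (adjusted p = 0.0234). The change was -0.09 with median-of-ratios scaling and -0.15 with quantile normalization, where it did not pass, and -0.25 without low-NaHCO3 replicate 3, where it did not pass either. Under 15% CO2 and lactic acid no fit called Clock.

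**Figure D2:**
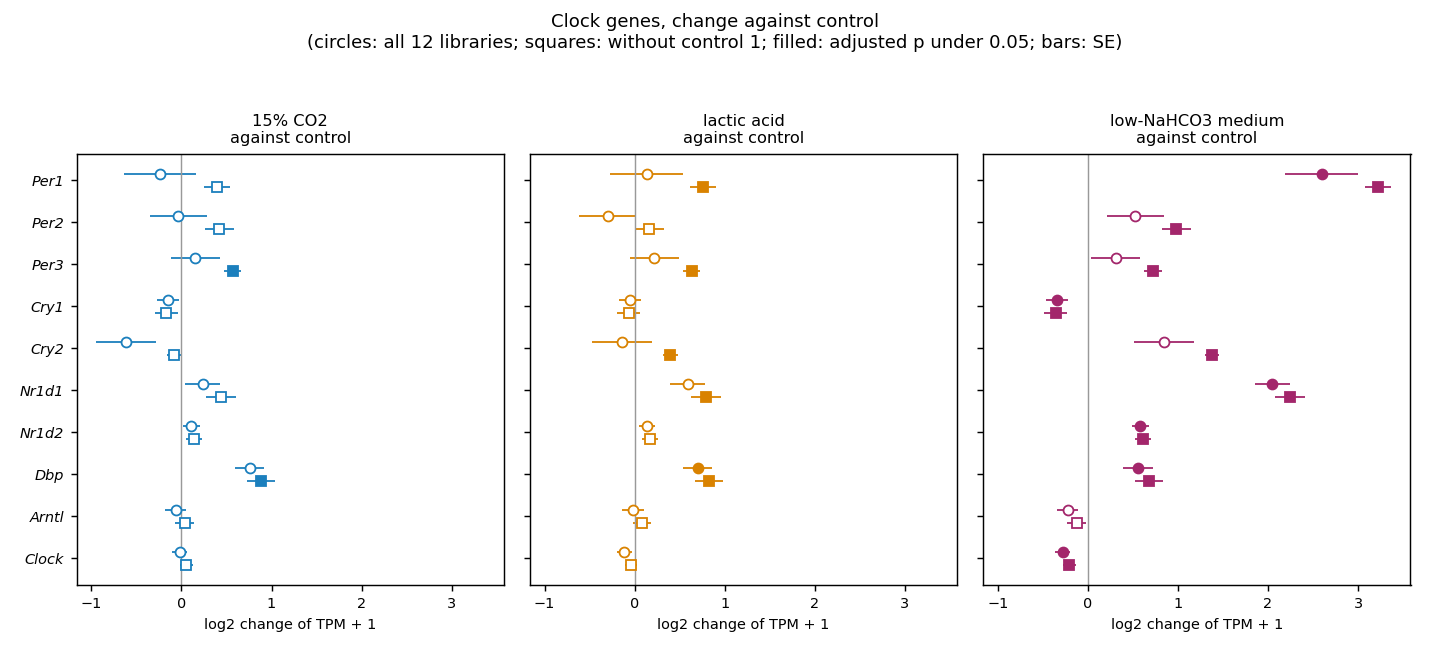
Log2 change of TPM + 1 against control (horizontal axis, the same in the 3 panels) for the 10 clock genes; circles are from all 12 libraries, squares from the fit without control 1, filled symbols passed an adjusted p of 0.05 and bars are SE. Per1 at 2.59 and Nr1d1 at 2.04 in low-NaHCO3 medium are the largest changes, and Per1, Per2, Per3 and Cry2 move most between circles and squares.

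The treatments were also compared with each other, with no control in the contrast. Between 15% CO2 and lactic acid none of the 10 genes passed limma's test with all 12 libraries, and 0 had an unadjusted p under 0.05, where 0.17% of all genes were higher under 15% CO2 and 0.0325% lower. Control 1 enters here through the shared estimate of spread, the choice of genes tested and the adjustment over them. Without it Cry2 was lower under 15% CO2 (-0.47 ± 0.07, adjusted p = 0.00715, limma), against 2.96% of all genes higher and 1.64% lower. The 3 lactic acid libraries of Cry2 were above the 3 of 15% CO2. Dbp did not differ past the threshold between those treatments, at 0.06 ± 0.14 without control 1.

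Against low-NaHCO3 medium, 15% CO2 had lower Per1 (-2.83 ± 0.40), Nr1d1 (-1.81 ± 0.19), Cry2 (-1.45 ± 0.33) and Nr1d2 (-0.47 ± 0.09) and higher Clock (0.26 ± 0.08), with 17.5% of all genes lower and 33.7% higher (51.3% in either direction). The Clock call of this comparison was kept in 18 of 25 alternatives. It was lost with quantile normalization (0.14), with median-of-ratios scaling (0.04, adjusted p = 0.719, limma), with that scaling without control 1 (0.04), and without 15% CO2 replicate 1 or 2 or low-NaHCO3 replicate 2 or 3 (log2 changes from 0.22 to 0.27). Without control 1 Per2 (-0.56 ± 0.14) joined the lower genes, for 5 lower and 1 higher, against 23.8% and 45.5% (69.3% in either direction). The adjusted p-values of the 4 lower genes in the fit of 12 libraries ran from 2.64e-05 for Nr1d1 to 0.00397 for Cry2. Lactic acid against low-NaHCO3 medium gave the same 4 lower genes, Per1 (-2.46 ± 0.40), Nr1d1 (-1.45 ± 0.19), Cry2 (-0.98 ± 0.33) and Nr1d2 (-0.44 ± 0.09), and no higher one, against 17.8% lower and 30.8% higher over all genes (48.5% in either direction). The Cry2 call was kept in 17 of 25 alternatives. It was lost when any 1 of the lactic acid or low-NaHCO3 libraries was left out (adjusted p of at most 0.0786, limma), with log2 changes of -0.94 to -1.01, and also without a filter and without mitochondrial and abundant genes. Without control 1, Per2 was added below and Cry1 and Clock above, for 5 lower and 2 higher, against 24.4% and 42.9% (67.4% in either direction). The higher Clock of the lactic acid libraries (0.17 in both fits) turned to -0.02 with median-of-ratios scaling. Dbp, Per3 and Arntl did not pass between treatments in either of these fits, though each passed in at least 1 comparison under another alternative.

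Levels can be set side by side because TPM is corrected for length. Without control 1 the control means ran from Nr1d2 (96.5 TPM) through Clock (37.3), Cry1 (35.3), Nr1d1 (32.3), Arntl (17.2), Dbp (14.9), Cry2 (11.7) and Per1 (11.5) to Per2 (5.92) and Per3 (5.12). Cry2 and Per1 did not separate there, and neither did Per2 and Per3, since the ranges of their libraries overlapped. In low-NaHCO3 medium the order was Nr1d1 (157 TPM), Nr1d2 (148), Per1 (117), Clock (32.2), Cry2 (31.9), Cry1 (27.4), Dbp (24.4), Arntl (15.7), Per2 (12.8) and Per3 (9.07). Nr1d1 and Nr1d2 overlapped, as did Clock and Cry2, and Cry1 and Dbp. Per1 moved from the eighth place to the third and Nr1d1 from the fourth to the first. Under 15% CO2 the levels ran from 107 TPM for Nr1d2 to 8.05 for Per3, and with lactic acid from 109 for Nr1d2 to 6.78 for Per2.

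Over the 11 libraries without control 1, Per1, Nr1d1 and Cry2 followed each other closely. Pearson's r of log2(TPM + 1) was 0.985 for Per1 with Nr1d1, 0.968 for Per1 with Cry2 and -0.89 for Per1 with Clock. Dbp had r = 0.776 with Per3 but 0.213 with Nr1d1 and 0.177 with Per1. These values describe 11 libraries in 4 groups, which share those groups. After each group's mean was subtracted, r was 0.803 for Per1 with Nr1d1, -0.12 for Per1 with Cry2 and 0.0125 for Dbp with Per3. Without that subtraction, r was also taken over all tested genes with a regular name, so the values that follow include the group differences. Dbp had its highest values among the genes reported here with Sord (r = 0.93) and Zfp420 (0.92). Sord, which encodes sorbitol dehydrogenase, had a mean of 265 TPM in controls 2 and 3, and means of 298, 298 and 293 in the 15% CO2, lactic acid and low-NaHCO3 groups. Nr1d1 was most like Plekho2, Sik2 and Baz2a (r = 0.99 each), and Sik2, a salt-inducible kinase, stood at 14.1, 16.9, 18.4 and 27.0 TPM in the same order of groups. Arntl was most like Sept5 (0.90), Ppp1r3c (0.89) and Fetub (0.89).

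Nr1d1 and Dbp each overlap another gene on the opposite strand in GENCODE M21, and the use of strand in counting is not given in the sources used here. Of the exonic bases of Nr1d1, 8.55% (263 bases) are shared with Thra, a thyroid hormone receptor gene, and of those of Dbp 18% (539 bases) with Sphk2, a sphingosine kinase gene. If strand was not used, reads from these stretches cannot be told apart. Thra was at 164.5 TPM in control 1 and between 21.6 and 30.7 in the other 11 libraries. In low-NaHCO3 medium it stood at 29.0, 30.7 and 26.3 TPM, beside the values near 157 for Nr1d1. Sphk2 lay between 10.5 and 14.1 TPM in all 12 libraries and was lowest in low-NaHCO3 medium. Cry2 shares 295 bases with D930015M05Rik and Arntl 33 bases with Gm45355, and neither of these has a row in the table used here.

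Other factors of the clock loops were followed as a list of 11 genes that holds ROR receptors, which compete with REV-ERB proteins, and the E-box and D-box factors beside the 10. In low-NaHCO3 medium 3 of the 11 rose and 5 fell, against 19.8% and 35% of all genes, and without control 1 the numbers were 4 and 6, against 22.7% and 40.9%. Their median log2 change was -0.32, against -0.20 over all genes. Ciart, a repressor of the ARNTL and CLOCK dimer, rose by 1.62 ± 0.14. Npas2, which can stand in for CLOCK, fell by 1.58 ± 0.53. Cipc, an inhibitor of CLOCK, fell by 1.24 ± 0.14, and Rorb, a ROR receptor, fell by 1.05 ± 0.12. Ciart was at 20.3, 25.3 and 23.4 TPM in the controls and 78.2, 57.3 and 84.9 in low-NaHCO3 medium, with no overlap. The Npas2 value rests partly on control 1, which had 19.5 TPM against 2.37 and 3.09 in controls 2 and 3, and without it the change was -0.75 ± 0.21. Rorb was at 19.0, 25.6 and 24.9 TPM in the controls, 28.1, 26.4 and 28.3 under 15% CO2, 28.2, 27.2 and 29.9 with lactic acid and 11.1, 11.4 and 9.32 in low-NaHCO3 medium. Every low-NaHCO3 library of Rorb was below the other 9. Under 15% CO2 and lactic acid 0 of the 11 passed in the limma fit of all libraries (1 in each at an unadjusted p under 0.05). Without control 1, Rora (0.36 ± 0.09 and 0.44 ± 0.09) rose in both, and Bhlhe40 (0.51 ± 0.11) with lactic acid, where 5.82% and 9.05% of all genes rose.

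**Figure D3:**
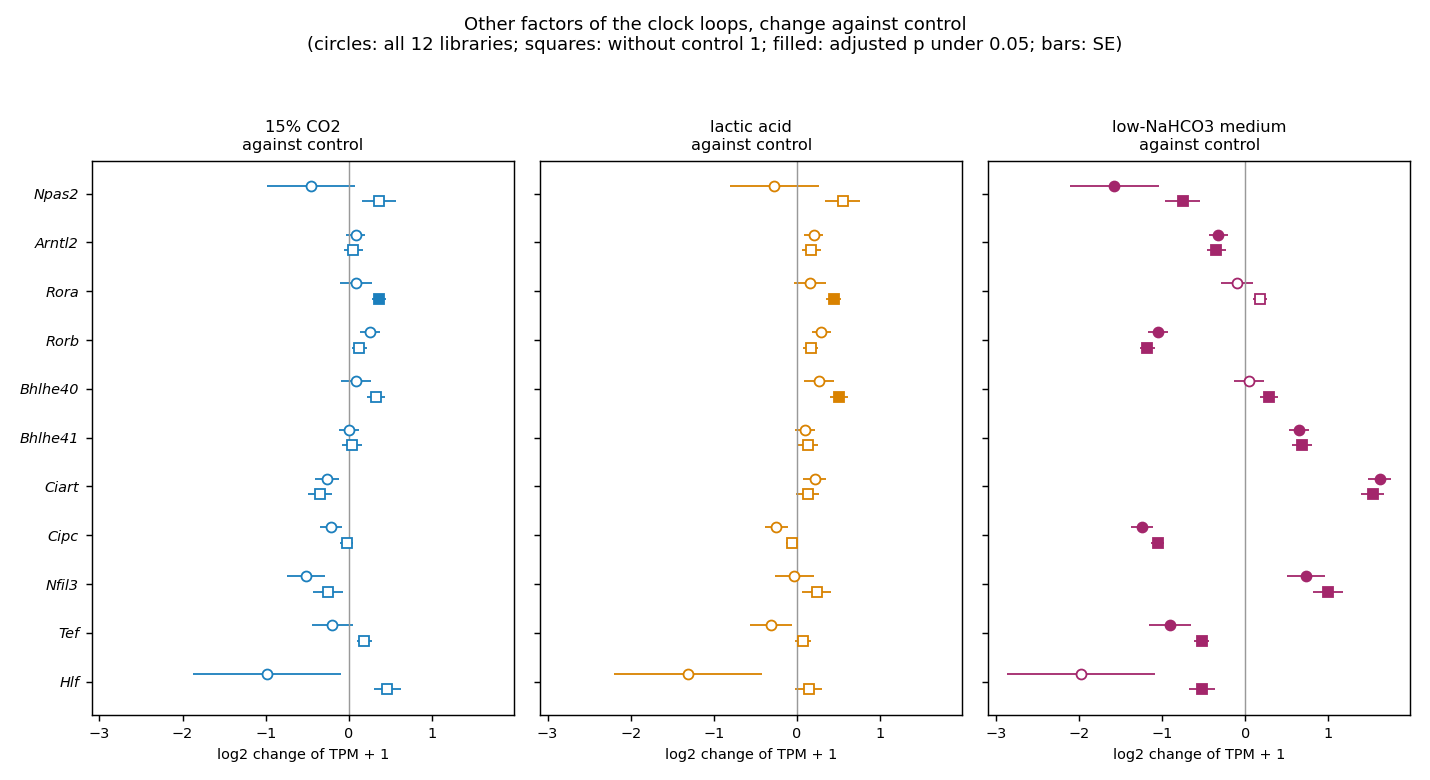
Log2 change of TPM + 1 against control (horizontal axis, the same in the 3 panels) for the 11 other loop factors, drawn as in the plot of the 10 clock genes. In low-NaHCO3 medium Ciart lies at 1.62, Cipc at -1.24 and Rorb at -1.05, and under 15% CO2 and lactic acid the filled symbols are squares.

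The proteins that phosphorylate, mark for decay or deacetylate PER, CRY and ARNTL were a list of 12 genes. In low-NaHCO3 medium 4 rose and 5 fell in the limma fit of all libraries, against 19.8% and 35% of all genes, and the numbers were also 4 and 5 without control 1, against 22.7% and 40.9%. In the fit of all libraries 0 passed under 15% CO2 (0 at an unadjusted p under 0.05) and 0 after lactic acid (2 at an unadjusted p under 0.05). Csnk1e, a casein kinase that phosphorylates PER proteins, rose by 0.85 ± 0.11 from 47.6, 35.0 and 40.0 TPM in the controls to 76.6, 72.0 and 73.4, without overlap. Prkaa2, a catalytic subunit of AMPK (which marks CRY1 for decay), fell by 1.26 ± 0.28, Sirt1, a deacetylase that acts on PER2 and ARNTL, by 0.78 ± 0.08, and Usp2, a deubiquitinase, by 0.68 ± 0.21. Prkaa2 was at 18.3, 6.44 and 7.24 TPM in the controls and 3.27, 3.58 and 3.42 in low-NaHCO3 medium. Without control 1, 0 passed under 15% CO2 (4 at an unadjusted p under 0.05, limma). In that fit 4 genes rose with lactic acid, against 9.05% of all genes, Fbxl21 by 0.60 ± 0.13, Csnk1e by 0.47 ± 0.08, Prkaa2 by 0.44 ± 0.10 and Usp2 by 0.41 ± 0.10. In the same fit Fbxl21 (-0.34 ± 0.13), Prkaa2 (-0.83 ± 0.10) and Usp2 (-0.37 ± 0.10) fell in low-NaHCO3 medium.

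Of 8 genes often rhythmic across tissues, 2 rose and 1 fell in low-NaHCO3 medium in the limma fit of all libraries, against 19.8% and 35% of all genes. In that fit 0 passed in the other treatments (1 under 15% CO2 and 2 with lactic acid at an unadjusted p under 0.05). Por, the electron donor of cytochrome P450 enzymes, rose by 0.58 ± 0.12, and Nampt, the rate-limiting enzyme of NAD salvage, by 0.35 ± 0.10, while Fkbp5, a glucocorticoid-induced chaperone gene, fell by 0.46 ± 0.17. Without control 1 the change of Fkbp5 was -0.31 ± 0.15 and did not pass (adjusted p = 0.0920, limma), while Por (0.45 ± 0.09) and Nampt (0.24 ± 0.07) did. In that fit Klf9 was the 1 gene of the list past the threshold under 15% CO2 and with lactic acid, and the 1 that fell in low-NaHCO3 medium. Of all genes without control 1, 5.82% rose under 15% CO2 and 9.05% with lactic acid. In low-NaHCO3 medium 22.7% rose and 40.9% fell. Klf9, another glucocorticoid target, rose in the same fit by 0.43 ± 0.07 under 15% CO2 and by 0.74 ± 0.07 with lactic acid and fell by 0.19 ± 0.07 in low-NaHCO3 medium. Klf9 stood at 207, 67.0 and 71.6 TPM in the controls, so control 1 was far above the others.

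Signals that reach the Per promoters were followed through 13 genes, among them the immediate early genes that CREB and serum response factor activate within minutes. In low-NaHCO3 medium 5 rose and 3 fell with all libraries (6 and 3 without control 1), against 19.8% and 35% of all genes (22.7% and 40.9% without control 1). Egr1 rose by 1.77 ± 0.37 and Dusp1, a MAP kinase phosphatase gene, by 1.48 ± 0.15, Crtc2, a coactivator of CREB, rose by 0.76 ± 0.16, and Crem, a CREB relative with repressor forms, fell by 1.09 ± 0.20. Egr1 was at 132, 38.7 and 37.4 TPM in the controls, 51.1, 48.1 and 53.9 under 15% CO2, 113, 96.4 and 129 with lactic acid and 199, 197 and 203 in low-NaHCO3 medium. Without control 1, which was high for Egr1, Fos (34.7 TPM) and Nr4a1 (71.0 TPM), the changes in low-NaHCO3 medium were 2.36 ± 0.10 for Egr1, 2.03 ± 0.21 for Fos and 1.80 ± 0.10 for Nr4a1, and all 3 passed. With lactic acid Dusp1 rose by 0.81 ± 0.15 in the fit of 12 libraries, where 2.47% of all genes rose. Without control 1 Egr1 (1.53 ± 0.10), Dusp1 (0.97 ± 0.12), Fos (0.90 ± 0.21) and Nr4a1 (0.36 ± 0.10) rose, against 9.05% of all genes. Under 15% CO2 no gene of the list passed limma's test with all libraries (1 at an unadjusted p under 0.05), where 1.28% of all genes rose. Without control 1 Egr1 (0.41 ± 0.10) and Srf (0.37 ± 0.09) rose, against 5.82% of all genes. Without control 1, Per1, Egr1, Fos, Nr4a1 and Dusp1 thus had their highest values in low-NaHCO3 medium and their next highest with lactic acid. This order did not hold for the whole list of 13 genes, and Crem and Sik1, among others, were lowest in low-NaHCO3 medium. Sik1 was at 16.2 and 15.8 TPM in controls 2 and 3 and at 15.6, 15.1 and 15.7 in low-NaHCO3 medium.

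**Figure D4:**
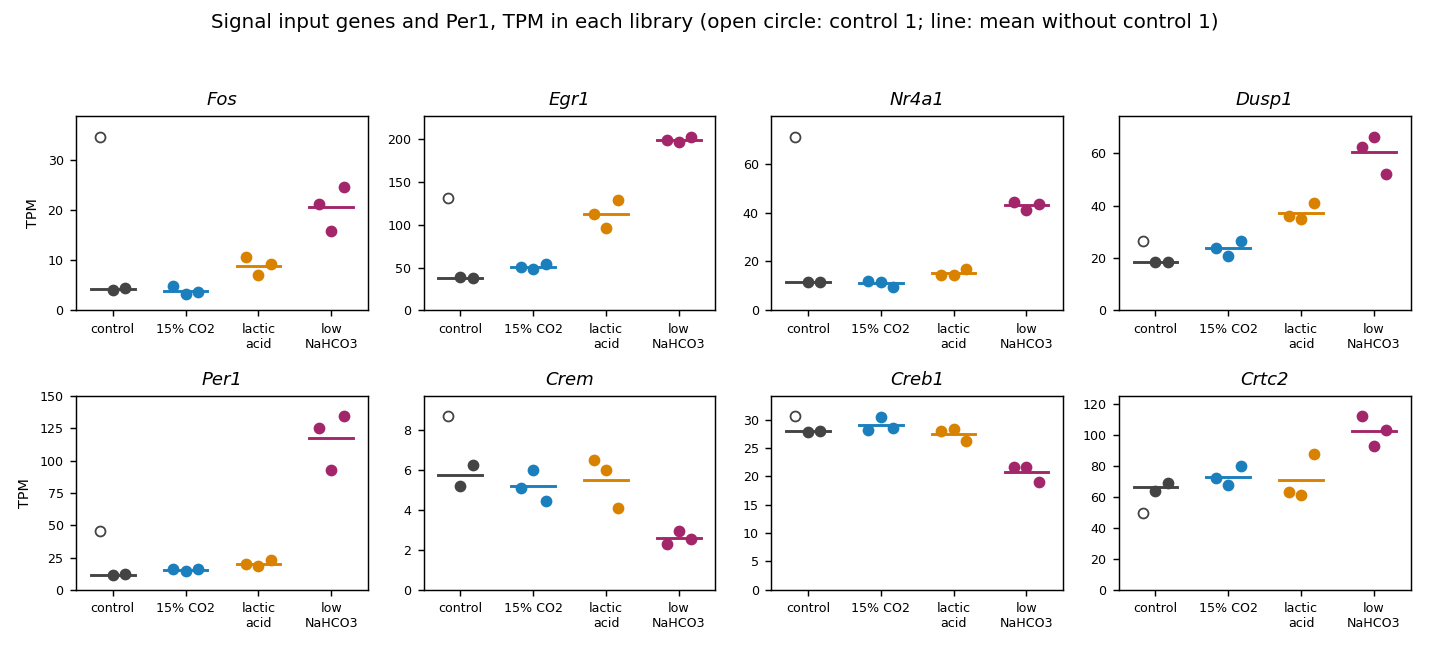
TPM (vertical axis, from 0, scaled for each gene) of 7 signal input genes, chosen after their values were seen, and of Per1 in each library; the open circle is control 1 and each line is the group mean without it. Fos, Egr1, Nr4a1, Dusp1 and Per1 are highest in low-NaHCO3 medium among the 11 libraries without control 1, and Crem and Creb1 are lowest there.

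Acid effects on the clock have been tied to mTORC1, the kinase complex that senses nutrients at the lysosome, so 23 genes of that pathway were followed. In low-NaHCO3 medium 1 rose and 12 fell, against 19.8% and 35% of all genes, and without control 1 the numbers were 2 and 13, against 22.7% and 40.9%. Their median log2 change was -0.45, against -0.20 over all genes. Deptor, an inhibitor within the complex, fell by 1.71 ± 0.27, Mlst8, a subunit, by 1.41 ± 0.13, Ddit4 (REDD1, a stress-induced inhibitor) by 1.18 ± 0.23 and Akt1s1 (PRAS40, an inhibitor) by 1.0 ± 0.12. The Deptor value rests partly on control 1, which had 23.2 TPM against 9.90 and 9.14 in controls 2 and 3. In low-NaHCO3 medium Deptor was at 3.08, 3.78 and 2.89 TPM. The genes that fell thus include subunits and inhibitors of the complex. In the limma fit of all libraries Mlst8 was the 1 gene that passed with lactic acid (-0.63 ± 0.13), where 1.52% of all genes fell. In that fit 0 passed under 15% CO2 (3 at an unadjusted p under 0.05). Without control 1, Lamtor1 (-0.52 ± 0.11), Mlst8 (-0.52 ± 0.11), Lamtor3 (-0.47 ± 0.11) and Akt1s1 (-0.45 ± 0.10) fell with lactic acid, against 7.08% of all genes. Lamtor1 and Lamtor3 encode subunits of the Ragulator complex, which holds mTORC1 at the lysosome. Sesn2 (-0.42 ± 0.11), a stress-induced inhibitor of the pathway, fell under 15% CO2 in that fit, against 1.56% of all genes. These are transcript levels, and the activity of the complex was not measured.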

How the data were processed

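RNA of C8-D1A cells was sequenced in 12 libraries, 3 in each of 4 groups, after Trizol extraction and NEBNext Ultra II library preparation, per the labels' protocols. The submitters' processing notes name fastp 0.22.0, HISAT2 2.1.0 and the build GRCm39. How reads were counted, on which annotation and whether by strand is not given in the sources used here. The authors deposited TPM for 21959 Ensembl genes, and each column sums to 1000000. No counts are listed, so sequencing depth is unknown and intervals or floors for counting error could not be set. Descriptions of some 15% CO2 and control libraries name CO3 and CO4, read here as copying errors.

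Symbols came from GENCODE M21 by Ensembl ID (21851 of 21959 matched). Values were taken as log2(TPM + 1), which understates changes of low genes. Genes that reached 1 TPM in 3 or more libraries were fitted with limma 3.58.1 in R 4.3.3 (group means, eBayes with a trend), all 12 libraries sharing one estimate of spread, two-sided, with Benjamini-Hochberg adjustment within each of 6 comparisons and for the moderated F test. The same fit was made without control 1, and the code was tested on simulated data. The alternatives were a pseudocount of 0.1, a minimum of 5 TPM or none, quantile normalization, median-of-ratios scaling, columns without mitochondrial and the 10 most abundant genes, no eBayes trend, a replicate block, only the 2 groups compared and each library left out.

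The clock genes and all lists were chosen with earlier results of these data known. All 10 clock genes are named. Of each other list, up to 4 genes per comparison are named, those past the threshold with the largest log2 changes. Sik1 is named in addition, as a gene of the signal list that differs from Per1. For Dbp, Nr1d1 and Arntl genes among the 3 with the highest Pearson correlation over 11 libraries are named, and for each marker list of other cells its highest gene in control 1. Some genes are not reported here, and those that belonged to the loop factor and oligodendrocyte lists were left out of their counts and sums after the values were known.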

Additional observations from a re-analysis of the deposited data

How the results depend on the processing

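Per1, Nr1d1 and Nr1d2 rose in low-NaHCO3 medium under all 25 alternatives run, and Dbp under 24 of 25, the exception being the fit without low-NaHCO3 replicate 3 (0.50, adjusted p = 0.0527, limma). Counts of clock genes past the threshold moved most with control 1. Over the 12 fits that left out 1 library, the count ran from 0 to 2 for 15% CO2, from 0 to 5 for lactic acid and from 3 to 9 for low-NaHCO3 medium against control. It ran from 0 to 1 for 15% CO2 against lactic acid, from 4 to 6 for 15% CO2 against low-NaHCO3 medium, from 3 to 7 for lactic acid against low-NaHCO3 medium and from 4 to 8 for the F test. The highest count came in each case without control 1, and the 3 of low-NaHCO3 medium without its replicate 3. Over all genes the share past the threshold was also highest without control 1 in the 6 pairwise comparisons. It ran from 0.244% to 7.38% for 15% CO2 and from 0.822% to 16.1% for lactic acid against control. For low-NaHCO3 medium against control it ran from 44.8% to 63.7%, and for 15% CO2 against lactic acid from 0.0489% to 4.6%. Against low-NaHCO3 medium it ran from 42% to 69.3% for 15% CO2 and from 38.4% to 67.4% for lactic acid. The 15% CO2 count was 1 with a minimum of 5 TPM, with quantile normalization, with median-of-ratios scaling and without mitochondrial and abundant genes, each time Dbp. The shares of all genes there were 1.68%, 1.11%, 1.38% and 2.51%. The lactic acid count was 0 without a filter, with the replicate block and with only the 2 groups compared, where 0 genes of the whole table passed and 1672 had an unadjusted p under 0.05. Controls 2 and 3 with median-of-ratios scaling gave 2 for 15% CO2, 5 for lactic acid and 1 for 15% CO2 against lactic acid. Of all genes 11%, 22.1% and 6.71% passed there.

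No general pairing of same-numbered libraries was seen with all 12 libraries. Of 18 such pairs 3 had a correlation of deviations over 0.1 (range -0.14 to 0.46), against 5 of 36 pairs with different numbers (-0.46 to 0.38). Only 3 of 12 libraries correlated best with their own number. Control 1 shifts the deviations of controls 2 and 3, so pairing with the controls cannot be judged from these values. The replicate block gave 0, 0 and 7 clock genes for 15% CO2, lactic acid and low-NaHCO3 medium against control, where 0.584%, 2.88% and 55% of all genes passed. With controls 2 and 3 and the replicate block the counts were 3, 5 and 9, then 1 for 15% CO2 against lactic acid and 8 for lactic acid against low-NaHCO3 medium. Chosen after seeing the data were a filter within 1 group, which moved no count, and leaving out control 1 together with replicate 3 of both 15% CO2 and lactic acid (the joint omission). The joint omission gave 2 and 5 for 15% CO2 and lactic acid against control, 1 for 15% CO2 against lactic acid, and 8 for each of these against low-NaHCO3 medium, where 13.3%, 18.8%, 5.96%, 72.7% and 69.5% of all genes passed, so that 8 of 10 is near the background. For the counts of 3, 5, 9, 1 and 8 from controls 2 and 3 with the replicate block, the shares of all genes were 7.07%, 18.7%, 64.2%, 4.31% and 69.3%.

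Some log2 changes that had not passed changed sign, and the cause was not tested. In the order without control 1, controls 2 and 3 with median-of-ratios scaling, with the replicate block, and the joint omission, 15% CO2 against control became 0.39, 0.36, 0.37 and 0.35 for Per1, 0.42, 0.39, 0.37 and 0.42 for Per2, and 0.055, 0.021, 0.053 and 0.077 for Clock. For Arntl the first 3 became 0.036, 0.0031 and 0.054. Lactic acid against control became, in the same order, 0.16, 0.17, 0.11 and 0.045 for Per2, 0.40, 0.40, 0.36 and 0.43 for Cry2 and 0.082, 0.090, 0.10 and 0.034 for Arntl. Without mitochondrial and abundant genes the values were 0.022 for Per2 and 0.041 for Clock under 15% CO2, and 0.0053 for Cry1 and 0.041 for Arntl with lactic acid. Quantile normalization gave Arntl 0.063 in the lactic acid comparison and 0.082 in that of low-NaHCO3 medium, where controls 2 and 3 with median-of-ratios scaling gave 0.056. The joint omission gave Cry1 0.019 with lactic acid. Clock in lactic acid against low-NaHCO3 medium became -0.016 with median-of-ratios scaling, and -0.012 with controls 2 and 3. Leaving out 1 library gave ranges across 0 under 15% CO2 for Per1 (-0.57 to 0.39), Per2 (-0.31 to 0.42), Per3 (-0.11 to 0.57), Arntl (-0.14 to 0.036) and Clock (-0.084 to 0.055), and with lactic acid for Per1 (-0.20 to 0.76), Per2 (-0.57 to 0.16), Per3 (-0.047 to 0.63), Cry1 (-0.11 to 0.032), Cry2 (-0.42 to 0.40) and Arntl (-0.092 to 0.082). The unknown depth limits what can be said of the genes with the fewest transcripts, Per2 and Per3.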
